A study of Mus musculus with 15 samples.

Results

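Cytosolic ribosomal protein genes were selected from 2 kinds of Agilent array by their printed gene names, which begin with Rpl or Rps and a number or are Rpsa, Rplp0, Rplp1 or Rplp2. The Rps6k kinases and the mitochondrial Mrp genes were left out. On the promoter arrays the rule took 149 of 40283 probes on part 1 and 196 of 40284 on part 2, which fell into 82 of 17342 promoter regions. The value of a region averages all its probes, also those named for another gene. On the expression arrays it took 134 of 41174 probes, with 80 gene names. Of the 82 regions, 65 had at least 3 probes and were tested, for 58 different genes; of the 80 gene names, 79 were tested, and Rpl3l was left out because its signal was well above background on 2 of 3 arrays only.

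The study compared the mouse embryonic stem (ES) cell line J1, which is wild type, with TKO, an ES cell line deficient in DNA methylation that lacks the methyltransferases Dnmt1, Dnmt3a and Dnmt3b. Both lines grew with LIF and serum and without feeders for 2 passages before harvest. An antibody against methylated DNA enriched such fragments (MeDIP) out of 2 ug of genomic DNA, and both lines were hybridised together on promoter arrays in 2 parts with different promoters, 7 arrays each, from different passages. RNA of both lines was hybridised on 3 arrays, deposited as 1 sample, with the dyes swapped on replicate 2. The log ratio of an array, on which both lines lie, counts as 1 replicate. With 1 line of each genotype, p-values measure the spread between arrays and not between lines.

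The ribosome is built from a large and a small subunit, each an assembly of ribosomal RNA with many proteins that are needed in near-equal amounts. Ribosomal protein genes are among the most strongly transcribed genes of growing cells, their promoters are usually rich in CpG and free of methylation, and their transcripts typically begin with a tract of pyrimidines through which translation is controlled. A few members have paralogs used in particular tissues, among them Rpl39l in male germ cells and Rpl3l in muscle.

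RefSeq promoters, 250 bases before to 50 after the annotated start, were found for 59 of the 80 expression gene names. The median member promoter held 21 CpG dinucleotides (quartiles 16.0 to 25.5), against 7 over all 27025 promoters of the same length and 21 over 69 mitochondrial ribosomal protein promoters. A run of at least 8 pyrimidines within 20 bases of the start was present in 45.8% of member promoters, in 17.4% of the mitochondrial ones and in 15.9% of all. The fewest CpGs were at Rpl3l, with 2, and the most at Rpl36al, with 42. The sequences of 8 promoters are shown because the RNA or promoter results below turn on these genes: Rps15a, Rpl27a and Rpl22l1 (RNA higher in TKO), Rpl28 and Rps21 (RNA lower), Rps12 (named on regions of different chromosomes), and Rpl39 with its germ cell paralog Rpl39l. Each runs 5′ to 3′ from 100 bases before to 20 bases after the start in RefSeq's GRCm38.p6 annotation, with CpG in capitals.
Rps15a: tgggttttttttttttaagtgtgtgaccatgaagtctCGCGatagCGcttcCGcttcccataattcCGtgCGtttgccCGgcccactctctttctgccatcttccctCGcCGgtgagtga
Rpl27a: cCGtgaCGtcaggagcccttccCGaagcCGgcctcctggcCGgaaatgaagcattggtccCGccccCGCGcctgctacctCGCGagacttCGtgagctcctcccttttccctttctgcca
Rpl22l1: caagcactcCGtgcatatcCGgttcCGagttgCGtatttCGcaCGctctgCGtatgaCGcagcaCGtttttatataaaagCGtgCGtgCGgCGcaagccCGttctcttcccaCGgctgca
Rpl28: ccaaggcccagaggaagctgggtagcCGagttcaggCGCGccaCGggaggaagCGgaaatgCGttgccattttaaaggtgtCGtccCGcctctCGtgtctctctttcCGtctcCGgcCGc
Rps21: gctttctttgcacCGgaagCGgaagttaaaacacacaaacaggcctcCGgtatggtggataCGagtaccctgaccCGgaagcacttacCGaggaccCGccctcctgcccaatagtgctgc
Rps12: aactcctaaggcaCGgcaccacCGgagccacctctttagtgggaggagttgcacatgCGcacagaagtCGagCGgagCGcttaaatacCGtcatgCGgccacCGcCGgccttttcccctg
Rpl39: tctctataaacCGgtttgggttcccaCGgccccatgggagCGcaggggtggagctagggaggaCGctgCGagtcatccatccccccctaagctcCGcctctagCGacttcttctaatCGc
Rpl39l: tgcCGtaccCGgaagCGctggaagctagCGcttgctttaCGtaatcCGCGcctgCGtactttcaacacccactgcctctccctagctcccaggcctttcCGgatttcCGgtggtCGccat
They lie at chr7:118116128-118116247, minus strand (Rps15a), chr7:109519095-109519214, plus strand (Rpl27a), chr3:28805408-28805527, plus strand (Rpl22l1), chr7:4792865-4792984, plus strand (Rpl28), chr2:180257279-180257398, plus strand (Rps21), chr10:23787190-23787309, minus strand (Rps12), chrX:37085203-37085322, minus strand (Rpl39) and chr16:10170128-10170247, plus strand (Rpl39l). The 300-base promoters of Rpl39 and Rpl39l held 17 CpGs each, and those of Rpl27a and Rpl22l1 held 31 and 30. The pyrimidine run beside the start had 20 bases at Rpl27a, the longest of the 8, 10 at Rps15a and Rpl22l1, 11 at Rpl28 and Rps12, 8 at Rpl39 and 7 at Rps21 and Rpl39l.

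Signal was well above background in both channels for 86.8% to 99.1% of promoter array probes, and no member probe was saturated. On the expression arrays the share was 58.6%, 51.5% and 36.8% on replicates 1, 2 and 3; replicate 3 has many spots marked as uneven, which were left out, so 40 of the 79 members were measured on replicates 1 and 2 only. Per the labels, Cy3 marks J1 and Cy5 marks TKO throughout the promoter arrays. This direction is in doubt, because 375 of all regions passed the size call given below towards TKO, the line deficient in methylation, and 11 towards J1, so MeDIP values are given as log2(J1/TKO) on the labelled J1 side (above 0) or the labelled TKO side (below 0). RNA values are log2(TKO/J1) with J1 in Cy5 on replicates 1 and 3. The labels name both dyes for each line, with Cy5 first for J1, and state the swap of replicate 2, so this order is likely and not certain; under it the RNA ratio was -1.07 for Dnmt1, -2.36 for Dnmt3a and -2.50 for Dnmt3b. Markers were tested if well above background on all 3 arrays in J1 or in TKO, so a marker could enter through TKO alone. Of 15 ES cell markers, 11 were tested, with 5 lower and 0 higher in TKO, beside 15.8% and 16.9% of all genes. Of 12 fibroblast markers, 6 were tested, with 4 higher and 1 lower. Of 12 trophoblast and endoderm markers, 8 were tested, and all 8 were higher. Summed over the 4 of these 8 measured on all arrays, the signal ranged from 4547 to 7973 in J1 and from 23428 to 44405 in TKO; the part of other cell types in the results below was not tested.

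The promoters of ribosomal protein genes differed little between the lines. With an adjusted p under 0.05 and a ratio of at least 0.5 in size, 1 of 65 member regions (1.54%) was called towards labelled TKO and 0 towards labelled J1, where an unadjusted p under 0.05 also gave 0. Over all 14157 regions these calls were made for 2.65% and 0.0777%. At any size, 10 members were called towards labelled TKO and 25 towards labelled J1, 15.4% and 38.5% of members, against 31.7% and 25.6% of all regions, with limma and Benjamini-Hochberg adjustment. Of the 68 mitochondrial ribosomal protein regions, 14 and 25 were called.

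The median ratio over members was 0.07 (quartiles -0.03 to 0.11), over mitochondrial members 0.03 and over all regions -0.01. By array, the median of the 29 part 1 members lay at 0.06 ± 0.04 (SD, n = 7) and that of the 36 part 2 members at 0.05 ± 0.02 (SD, n = 7), while all regions lay at -0.01 ± 0.01 (SD, n = 7) on each part. Large subunit members (37 regions) and small subunit members (23 regions) had the same median of 0.07. Normexp background correction with median centring left 5 and 12 of the 65 members called on the labelled TKO and J1 sides, 7.69% and 18.5%, beside 14.6% and 16.1% of all regions. Within 500 bp of the start, 3 and 29 of 49 members were called, 6.12% and 59.2%, beside 20.5% and 37.4% of all regions, with a median of 0.12 beside 0.06 over all regions.

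**Figure D1:**
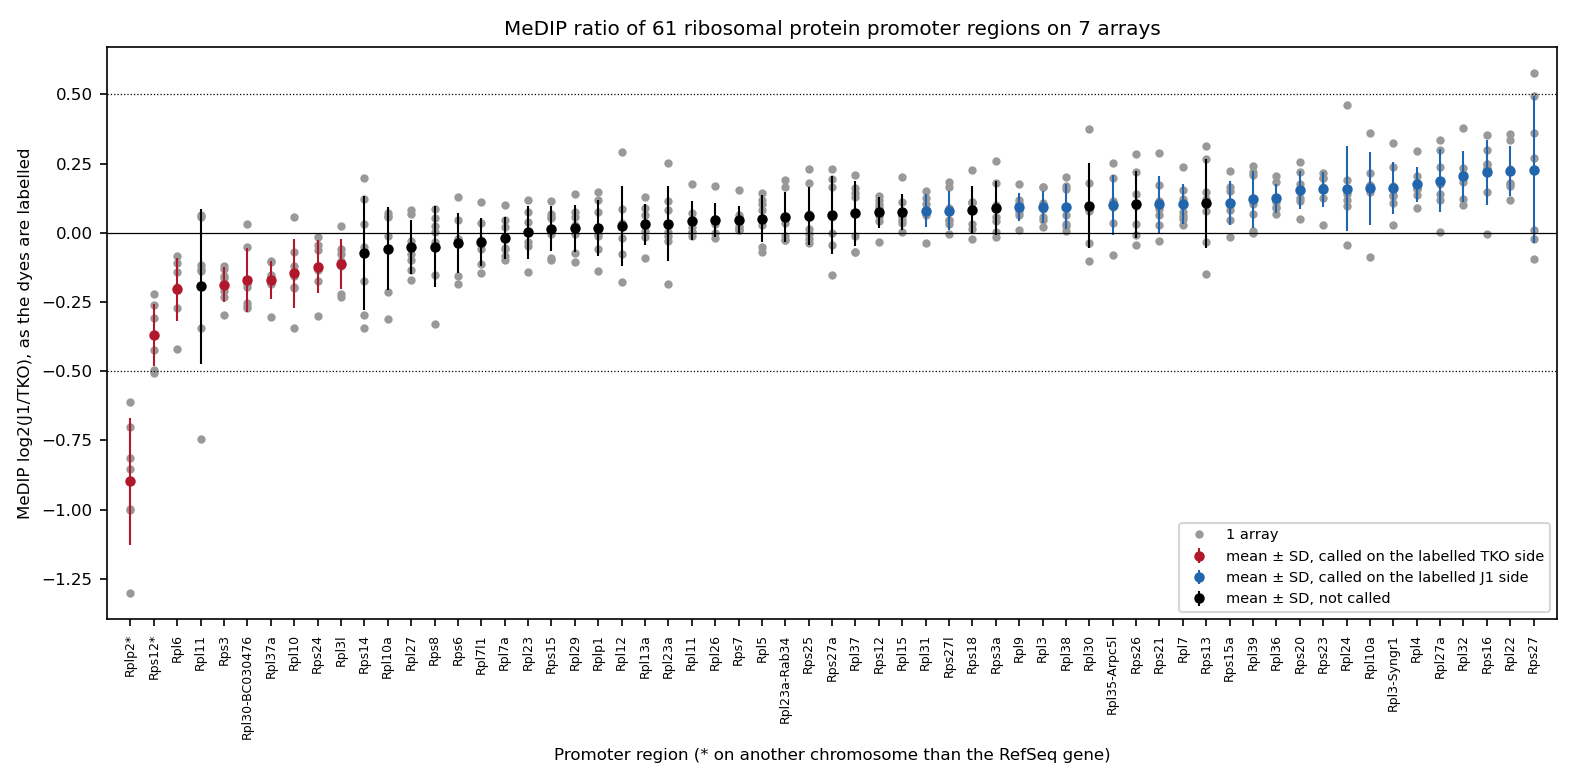
MeDIP log2(J1/TKO), as the dyes are labelled, of 61 tested member regions in order of their mean; grey points are single arrays, coloured points are means with SD over 7 arrays, and dotted lines mark a size of 0.5. The regions named Rplp2 and Rps12 that lie on other chromosomes than their genes (stars) are lowest, at -0.90 and -0.37.

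The 2 lowest ratios belong to regions that do not lie on the chromosome of the gene they are named for. The region named Rplp2, a gene of the acidic stalk that recruits elongation factors, lies on chromosome 12, and RefSeq places the gene on chromosome 7. Its 7 arrays ran from -1.30 through a median of -0.85 to -0.61, a mean of -0.90 ± 0.23 (SD, n = 7, adjusted p = 8.42e-06). All arrays lay on the labelled TKO side, and so did each of its 6 probes, from -0.54 to -1.58, the lowest of them 291 bp upstream of the start the array annotates. With normexp and median centring the ratio was -0.34, below the size call.

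For Rps12, a small subunit protein, the arrays hold 2 tested regions. The region on chromosome 19 ranged from -0.51 through -0.37 to -0.22, with a mean of -0.37 ± 0.11 (SD, n = 7, adjusted p = 4.17e-05). It was -0.15 and not called with normexp and median centring (adjusted p = 0.0759), and -0.18 within 500 bp of the start. The region on chromosome 10, where RefSeq has the gene whose promoter is printed above, ranged from -0.03 through 0.09 to 0.13, with a mean of 0.07 ± 0.06 (SD, n = 7, adjusted p = 0.0532). The arrays of these regions do not overlap. Without the regions on other chromosomes, 63 members remained, of which 0 passed the size call. At any size, 8 of them were called on the labelled TKO side, beside 31.7% of all regions.

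Among the regions on the gene's own chromosome, the lowest was Rpl6, a large subunit protein, at -0.20 ± 0.11 (SD, n = 7, adjusted p = 0.00164). However, its nearest probe lies 2135 bp upstream of the start, and of its 3 probes that one alone is named for Rpl6, at -0.23 ± 0.11 (SD, n = 7). Outside this region, a probe named for Rpl6 at 1687 bp after the start had 0.19 ± 0.20 (SD, n = 7). Rps3, a small subunit protein that also acts in DNA repair, had -0.30 as its lowest, -0.16 as its median and -0.12 as its highest array, a mean of -0.19 ± 0.06 (SD, n = 7, adjusted p = 0.000448). Rpl37a, a zinc-binding large subunit protein, stood at -0.17 ± 0.07 (SD, n = 7) and Rpl10, a large subunit protein at the subunit interface, at -0.15 ± 0.12 (SD, n = 7), the latter from probes no nearer than 1961 bp. A region shared between Rpl30 and BC030476 had -0.17 ± 0.12 (SD, n = 7), while another region of Rpl30 had 0.10 ± 0.15 and was not called. In the former, the probes that bear the Rpl30 name lie at -8484 to -9881 bp from the Rpl30 start, so that region is not at this start. Other calls on this side were Rps24 at -0.12 ± 0.10 and Rpl3l, the muscle paralog of Rpl3, at -0.11 ± 0.09. The Rpl3l region averages 5 probes that reach to -8125 bp, and its probe named for Rpl3l, at 141 bp, had -0.08 ± 0.21 (SD, n = 7). The Rpl3l call held in 2 of 6 alternatives, with -0.0033 (adjusted p = 0.948) under normexp and median centring and -0.027 (adjusted p = 0.61) over probes above background. Under normexp with median centring Rpl10 was at -0.092 (adjusted p = 0.0515) and the Rpl30-BC030476 region at 0.014 (adjusted p = 0.829). Restricted to probes within 500 bp of the start, Rps3 was at -0.050 (adjusted p = 0.244) and Rps24 turned to 0.24 (adjusted p = 0.000875).

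Several regions were called on the labelled J1 side with ratios from 0.16 to 0.23, among them Rps27, a small subunit protein with a zinc finger, at 0.23 ± 0.27 (SD, n = 7), Rpl22, a large subunit protein, at 0.22 ± 0.09, Rps16 at 0.22 ± 0.12, Rpl32 at 0.20 ± 0.09, Rpl27a at 0.19 ± 0.11, Rpl4 at 0.17 ± 0.06 and Rpl3-Syngr1 at 0.16 ± 0.10. At Rps27 the arrays reached from -0.09 to 0.58 with 2 of 7 below 0, whereas at Rpl22, Rpl32, Rpl27a and Rpl4 all 7 lay above 0. Rps27 was at 0.15 with the median over probes (adjusted p = 0.0662) and Rpl3-Syngr1 at 0.097 with normexp and median centring (adjusted p = 0.0945), not called. The Rpl3-Syngr1 region is not at the Rpl3 start, and its probes of that name lie at -6941 to -7915 bp. The region at the Rpl3 start had 0.09 ± 0.06 (SD, n = 7).

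Of the stalk proteins, Rplp1 had a region at its own start, at 0.02 ± 0.10 (SD, n = 7, adjusted p = 0.691). Among the paralogs, Rps27l, a p53-responsive relative of Rps27, was at 0.08 ± 0.07 (adjusted p = 0.0499), a call that held in 3 of 7 alternatives, and Rpl7l1 at -0.03 ± 0.09 (adjusted p = 0.447). Within 500 bp of the start Rpl7l1 turned to 0.10 and was called (adjusted p = 0.0195). The genes mutated in Diamond-Blackfan anaemia, an inherited failure of red cell production, were covered by 7 regions. Of these, 2 were called on the labelled TKO side, Rps24 among them, and 0 on the labelled J1 side, beside 31.7% and 25.6% of all regions. Rpl5 at 0.05 ± 0.08, Rps7 at 0.05 ± 0.05, Rps26 at 0.10 ± 0.12 and both regions of Rpl11, at 0.04 ± 0.07 (n = 6) beside the start and -0.19 ± 0.28 (n = 7) no nearer than 4445 bp, were not called.

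By distance, member probes between 500 and 200 bp upstream had a median of 0.13 over 49 probes against 0.03 over 12965 probes in all. Between 200 bp upstream and the start the medians were 0.10 (44 probes) and 0.07, and in the 200 bp after it 0.09 (39 probes) and 0.06. Mitochondrial ribosomal protein probes had medians of 0.12, 0.15 and 0.06 in these classes, so values above all probes upstream of the start were not particular to the members. More than 1000 bp upstream the medians were -0.03 (79 probes) for members, -0.18 for mitochondrial probes and -0.10 for all probes. More than 500 bp after the start the members had 0.14 (30 probes), the highest of the 7 classes by a small margin, while mitochondrial probes had 0.04 and all probes -0.04. Across the 40 member genes with a promoter region and a RefSeq entry, the CpG count and the MeDIP ratio had a Pearson correlation of 0.14 and a Spearman correlation of 0.06, given as a description over genes measured on shared arrays.

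**Figure D2:**
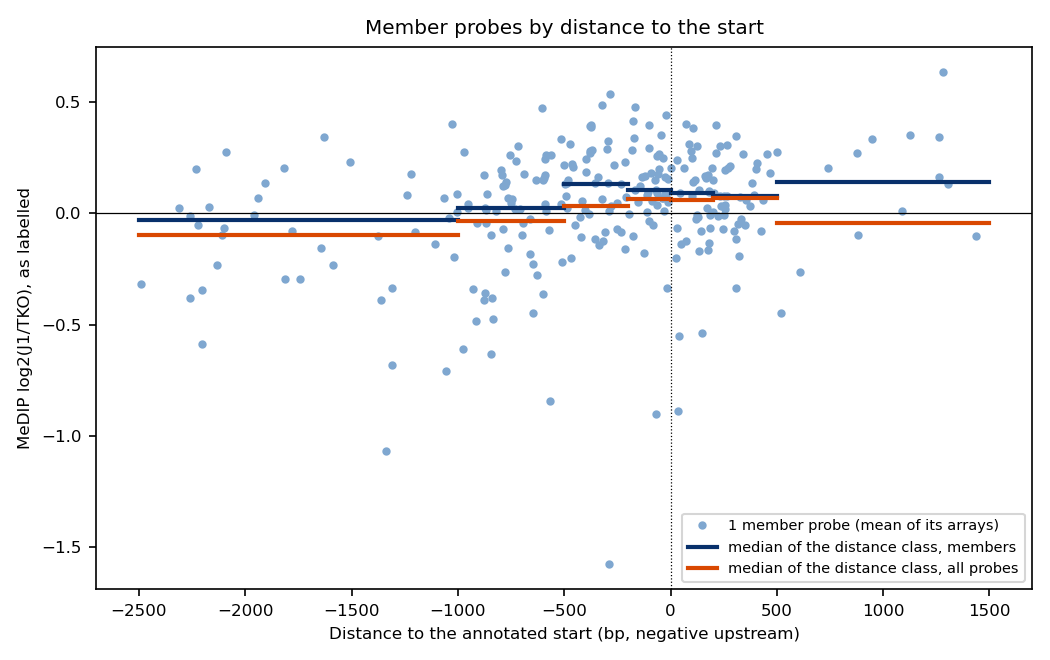
MeDIP ratio of each member probe (mean of its arrays) against its distance to the annotated start in bp, with the median of each distance class for members and for all probes; the outermost classes also hold probes beyond the plotted range. Member medians are 0.13 between 500 and 200 bp upstream and -0.03 beyond 1000 bp upstream; the lowest probe, at -1.58, belongs to the region named Rplp2 on chromosome 12.

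With loess scaling, the median RNA ratio of ribosomal protein genes was near 0, though saturated spots limit many of these ratios, as given below. Loess centres spots of like brightness on 0. Most members are among the brightest genes, so this median cannot show a shift that such bright genes share. Of 79 members, 9 (11.4%) were higher and 4 (5.06%) lower in TKO at an adjusted p under 0.05, against 16.9% and 15.8% of all 12079 genes tested with limma. In these bulk cultures, fewer cells of a type and less RNA per cell cannot be told apart. A 2-fold change was called for 0 members, also at an unadjusted p under 0.05, and for 1.61% (higher) and 0.72% (lower) of all genes. The median over members was 0.01 (quartiles -0.13 to 0.25), over all genes -0.01. By replicate the member median was -0.06, 0.01 and 0.27, so that replicate 3, with 39 members, stood above the others. Leaving out replicate 3 gave 5 higher and 2 lower of 79 members (6.33% and 2.53%, beside 15.0% and 13.7% of all genes). Leaving out replicate 2 gave 15 and 0 of 46 (32.6% and 0%, beside 12% and 10.9% of all genes), and leaving out replicate 1 gave 5 and 1 of 46 (10.9% and 2.17%, beside 12.8% and 10.3% of all genes). The mitochondrial ribosomal protein genes had 4 of 72 higher and 4 lower, with a median of -0.01.

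The spots of these genes are so bright that many exceeded the scanner's range, and this touches most of the higher calls. Of the 79 members, 76 were among the brightest 10% of genes, and 36 (45.6%) had a saturated channel on at least 1 array, compared with 0.654% of all genes. Replicates 1 and 3 have J1 in Cy5, the channel that saturated first: 26 member probes were saturated in J1 alone on replicate 1 and 19 on replicate 3, and 0 on replicate 2. A saturated line has only a lower bound, so a ratio with J1 alone saturated is an upper bound. Where both lines were saturated, all spots shared the same ratio, 0.66 on replicate 1, -0.23 on replicate 2 and 1.32 on replicate 3.

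The 36 members with a saturated spot had a median ratio of 0.24 and the 43 without had -0.07. Of the 9 higher calls, 4 had no saturated spot, and of the 4 lower calls, 3. For Rplp1, Rplp2, Rps2, Rps12, Rps18 and Rps20 the brightest probe was saturated in J1 on all 3 arrays and in TKO on 2 or 3, so no fold is given. Without saturated spots 62 members could be tested, with 4 higher and 8 lower (6.45% and 12.9%, beside 17.1% and 16.2% of all genes). For some of them, a dimmer probe took the place of the saturated one. With median centring in place of loess, which moved the median of all genes to -0.10, the members had a median of -0.22 with 0 higher and 7 lower (0% and 8.86%, beside 3.12% and 6.18% of all genes). Relative to all genes, the direction of the members' median thus depends on the scaling.

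**Figure D3:**
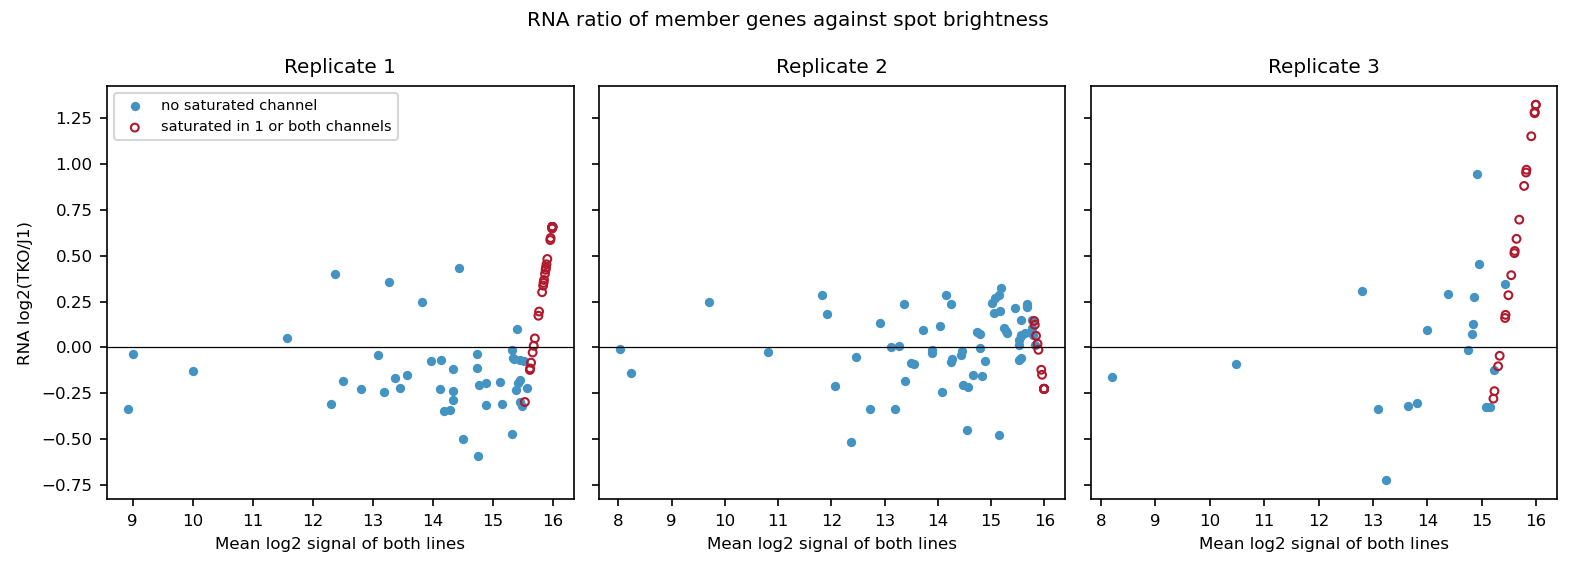
RNA log2(TKO/J1) of member genes against the mean log2 signal of both lines, for each replicate; open red circles are spots saturated in 1 or both channels. The saturated spots form steep lines at the bright end, up to 0.66 on replicate 1 and 1.32 on replicate 3, where J1 is in Cy5, and down to -0.23 on replicate 2.

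Among the higher genes without saturation, Rps15a, a small subunit protein, had 0.43, 0.28 and 0.45 on replicates 1 to 3, a mean of 0.39 ± 0.09 (SD, n = 3, adjusted p = 0.00611). The 3 arrays lie close together and above 0. Rpl27a, a large subunit protein, had 0.40, 0.29 and 0.31, a mean of 0.33 ± 0.06 (SD, n = 3, adjusted p = 0.0117). Rpl22l1, a paralog of Rpl22 that can take its place in the large subunit, had 0.25, 0.24 and 0.95, a mean of 0.48 ± 0.41 (SD, n = 3, adjusted p = 0.0225), with replicate 3 well above the others. Rpl22 itself had -0.16 ± 0.30 (SD, n = 3, adjusted p = 0.323). With median centring Rps15a stood at -0.063 and Rpl27a at -0.024, not called. Without replicate 3, Rpl22l1 was at 0.24 (adjusted p = 0.104), and without replicate 1, Rpl27a was at 0.30 (adjusted p = 0.0624); Rps15a stayed called without each replicate.

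The higher calls with J1 saturated on 2 arrays were Rpl27, Rpl13, Rps3, Rps16 and Rps28. Their saturated ratios are bounds or the shared constant, so no mean is given for these probes and their calls do not establish a higher level in TKO. On replicate 2, where J1 was not saturated, Rpl27, a large subunit protein, had 0.22, Rpl13 0.15, Rps3 0.06, Rps16 0.01 and Rps28, with TKO saturated, -0.01. On replicates 1 and 3 the ratios were 0.42 and 0.70 for Rpl27, 0.35 and 0.97 for Rpl13, 0.30 and 0.53 for Rps3, 0.66 and 1.15 for Rps16 and 0.60 and 1.28 for Rps28. In each of the 5 genes the unsaturated J1 array gave the lowest value. The calls also depended on single arrays: without replicate 3, Rpl13 was at 0.25 (adjusted p = 0.105), Rps16 at 0.34 (0.108), Rps28 at 0.29 (0.147) and Rps3 at 0.18 (0.241), and without replicate 1 the last 3 were not called either (adjusted p from 0.0975 to 0.137). With median centring Rpl27 was at -0.059 and Rpl13 at -0.017. Rpl13 lies on chromosome 8, where TKO had more RNA of 180 and less of 35 among 455 genes (median 0.18); the part of the chromosome in its value was not tested.

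Of the lower genes, Rpl4, a large subunit protein, had -0.04, -0.52 and -0.72, a mean of -0.43 ± 0.35 (SD, n = 3, adjusted p = 0.0238). Rpl28 had -0.31, -0.20 and -0.32, a mean of -0.28 ± 0.07 (SD, n = 3, adjusted p = 0.0256), the least spread of the lower calls. Rps21 had -0.22 and -0.48 on 2 arrays, a mean of -0.35 ± 0.18 (SD, n = 2, adjusted p = 0.0429). Rps6, the target of S6 kinase, had -0.59, -0.22 and -0.10, a mean of -0.30 ± 0.26 (SD, n = 3, adjusted p = 0.0499). J1 was saturated for Rps6 on replicate 3, so the -0.10 there is an upper bound and the mean rests on it. All arrays of these 4 genes lay below 0. Rpl28 lost its call with each replicate left out in turn, at -0.26 to -0.32 (adjusted p from 0.0601 to 0.0978). Rpl4 lost it without replicate 2 (-0.38, adjusted p = 0.142) or 3 (-0.28, 0.125) and kept it without replicate 1 (-0.62, 0.00485). Without replicate 1, Rps21 was at -0.14 (adjusted p = 0.339) and Rps6 at -0.16 (0.298); without replicate 2 they were at -0.20 (0.197) and -0.35 (0.117), and without replicate 3 both stayed called.

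**Figure D4:**
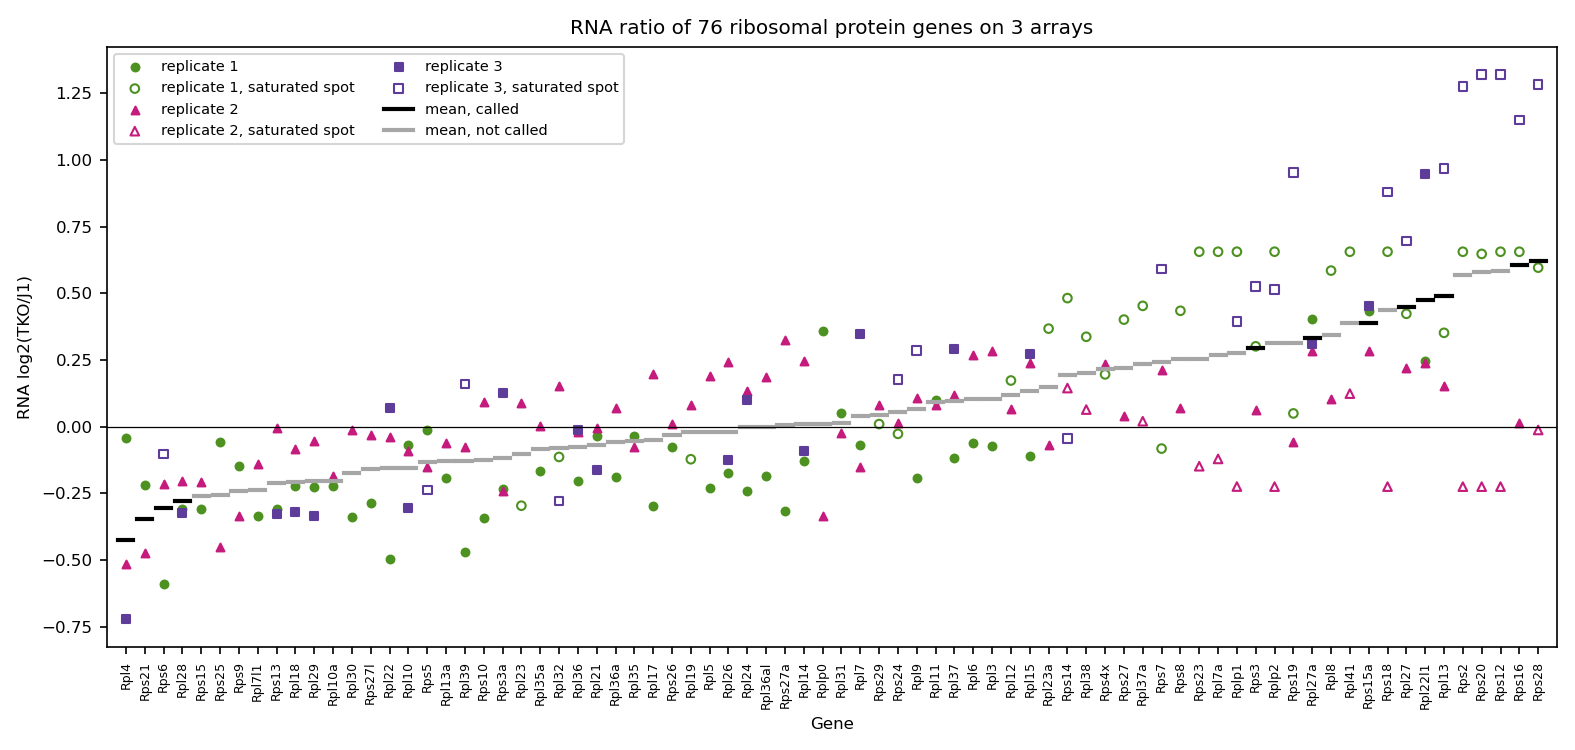
RNA log2(TKO/J1) of 76 tested member genes in order of their mean, with 1 symbol per replicate, open where a channel was saturated; black bars are means of called genes and grey bars of the others. Most open symbols are on the right, and the called genes without any are Rpl27a, Rps15a and Rpl22l1 among the higher and Rpl4, Rps21 and Rpl28 among the lower.

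Different probes of a gene did not always point the same way. Of 33 members with more than 1 passing probe, 9 had probes of both signs (Rpl9, Rpl23a, Rpl36a, Rps3, Rps7, Rps20, Rps24, Rps25 and Rps28), and in 2 of them, Rps3 and Rps28, probes were called in opposite directions, the higher call from a saturated probe in both. Rps28, a small subunit protein, had 4 probes, of which the 2 brightest had saturated spots and ratios above 0 on average. The others, without saturation, were at -0.23 ± 0.07 (SD, n = 2) and -0.67 ± 0.09 (SD, n = 3). The last had -0.78, -0.62 and -0.61 on the 3 arrays and an adjusted p of 0.000399 over all probes.

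Rps3, with its brighter probe saturated on 2 arrays, had -0.33 ± 0.14 (SD, n = 2, adjusted p = 0.0487) from a dimmer probe without saturation. Rps7, saturated on 2 arrays at its brighter probe, had -0.41 ± 0.21 (n = 2, adjusted p = 0.0268) at the unsaturated probe. That probe was dim, with a mean log2 signal of 7.33 against 15.57 at the brighter one. Rps24 had 0.05 ± 0.11 (n = 3), 0.10 ± 0.10 (n = 3) and -0.62 ± 0.38 (n = 2, adjusted p = 0.0107), and of its higher probes 1 was unsaturated. In this order the mean log2 signals of the Rps24 probes were 15.54, 8.07 and 10.66. Rps20 had -0.12 ± 0.40 (n = 3) from its dimmer probe. For Rpl9, Rpl23a, Rpl36a and Rps25 no probe was called. Counted as probes, 11 of 124 member probes were higher and 8 lower, against 15.9% and 14.6% of all 16056 probes.

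Large subunit members had 4 of 42 genes higher and 2 lower, with a median of -0.01, and small subunit members 4 of 30 higher and 2 lower, with a median of 0.17. Over all genes, 16.9% were higher and 15.8% lower. Saturated spots were present in 35.7% of the large and 63.3% of the small subunit members, and their part in this difference was not tested. At the brightest probe, none of the 9 genes mutated in Diamond-Blackfan anaemia was called, also not at an unadjusted p under 0.05. Dimmer, unsaturated probes of Rps7 and Rps24 were called lower, at -0.41 and -0.62 on 2 arrays each, with the signals given above. A further unsaturated probe of Rps24 had 0.10 and was not called. The values that follow are from the brightest probes. Rps19 had 0.32 ± 0.55 (SD, n = 3), saturated in J1 on 2 arrays. Rps7 had 0.24, also saturated in J1 on 2 arrays, and Rpl11 0.09, and Rpl5, Rps24, Rps10, Rps26 and Rpl35a lay between -0.13 and 0.05. The probe named Rplp0, the scaffold of the stalk, had 0.01 ± 0.49 (SD, n = 2). Of the remaining paralogs, Rpl7l1 had -0.24 ± 0.14 (SD, n = 2), Rps27l -0.16 ± 0.18 (SD, n = 2) and Rpl36al 0.00 ± 0.26 (SD, n = 2), not called.

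A strong difference appeared at a ribosomal protein gene that the arrays name otherwise and the selection therefore missed. Rpl39l, the germ cell paralog of Rpl39, is printed as 4930517K11Rik and was identified through its RefSeq accession. Its brighter RNA probe had 1.38 and 1.81 on replicates 1 and 2, a mean of 1.60 ± 0.31 (SD, n = 2, adjusted p = 5.27e-05), and its dimmer probe had 0.80, 1.06 and 1.01, a mean of 0.96 ± 0.14 (SD, n = 3, adjusted p = 6.88e-05). Every array of both probes was above 0, none was saturated, and median centring left the brighter probe at 1.58. Without replicate 1 or 2 the dimmer probe stood for the gene, at 1.03 and 0.91. Rpl39, the ubiquitous copy, had -0.47, -0.08 and 0.16, a mean of -0.13 ± 0.32 (SD, n = 3, adjusted p = 0.429), with J1 saturated on 1 array.

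The promoter of Rpl39l lay on the labelled TKO side on all 7 arrays, from -0.56 through -0.38 to -0.19, a mean of -0.37 ± 0.15 (SD, n = 7, adjusted p = 0.000117), short of the size call. It was -0.23 with normexp, under either median centring or loess, and -0.15 within 500 bp of the start (adjusted p = 0.032). Its 6 probes ranged from -0.76 at 522 bp upstream of the start to -0.03 at 271 bp after it, and the probe 37 bp after the start had -0.36 ± 0.21. The promoter of Rpl39 had 0.12 ± 0.10 (SD, n = 7, adjusted p = 0.019). The printed 120 bases hold 8 CpGs at Rpl39 and 11 at Rpl39l. No array of Rpl39l overlapped any array of Rpl39.

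Other ribosomal genes and relatives outside the selection were identified in the same way. Rpsa, printed as Lamr1, a laminin-binding small subunit protein, had 0.02 ± 0.13 (SD, n = 3) at its brighter probe, 0.44 ± 0.08 (SD, n = 2, adjusted p = 0.0134) at a dim one, and a promoter ratio of -0.09 ± 0.06 (SD, n = 7, adjusted p = 0.0226). Rps19bp1, an Rps19-binding nucleolar protein, was lower in TKO at both probes, by -0.49 ± 0.08 (SD, n = 2, adjusted p = 0.00752) at the brighter, with a promoter at 0.01 ± 0.07 (SD, n = 7). Fau, the fusion gene of Rps30, had -0.07 ± 0.11 (SD, n = 2) and a promoter at 0.24 ± 0.09 (SD, n = 7, adjusted p = 0.000267). Rpl34 and Rplp0, printed under other names, were not called. With members taken by current symbol, 10 of 83 were higher (12%) and 5 lower (6.02%), beside 16.9% and 15.9% of all genes. Rps19bp1 is in this set because its symbol fits the name rule, though it is a binding partner and not a ribosomal protein.

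For 56 genes both a promoter region on the gene's chromosome and RNA were measured. The promoter and RNA ratios had a Pearson correlation of 0.17 and a Spearman correlation of 0.10, and over the 32 genes without a saturated spot 0.40 and 0.23, given as a description over genes that share arrays. Rpl4, with a promoter at 0.17 and RNA at -0.43, and Rps15a, with a promoter at 0.11 ± 0.08 (SD, n = 7) and RNA at 0.39, had RNA of opposite sign beside promoters on the same side.

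**Figure D5:**
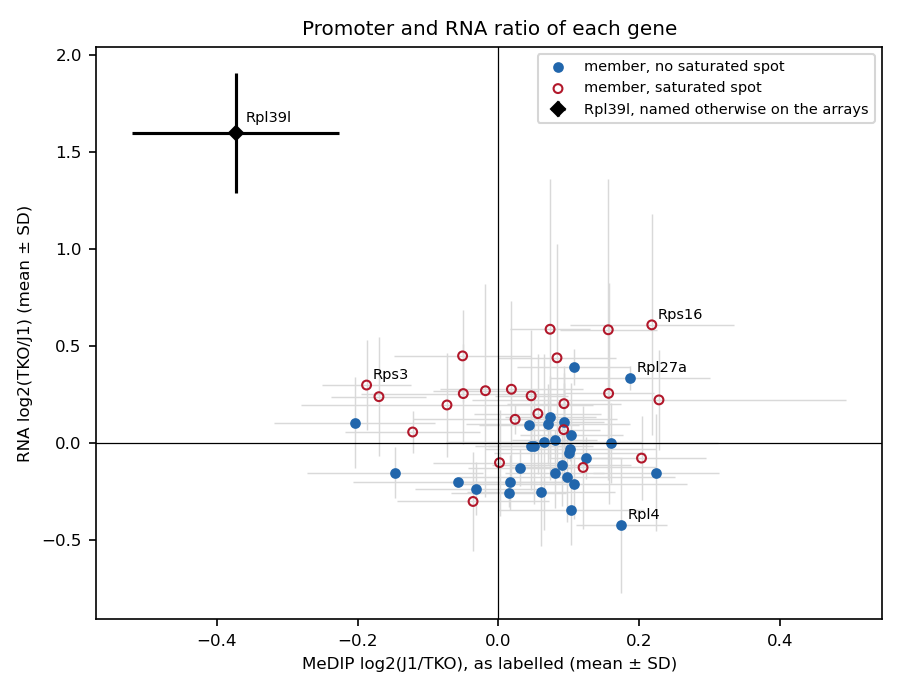
RNA log2(TKO/J1) against MeDIP log2(J1/TKO), as labelled, for 53 member genes, with SD over arrays; open circles have a saturated spot in the RNA data. The RNA ratios of open circles rest on saturated spots, and Rpl39l (diamond), which is not in the selection by name, stands apart at -0.37 and 1.60.

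Translation factors and ribosome assembly genes act with the ribosome, and their counts stand beside a background of 16.9% of genes higher and 15.8% lower. Of 40 tested translation factors, 8 (20%) rose and 5 (12.5%) fell in TKO, and their median was 0.05. The largest changes among calls were Eif3l, a subunit of the initiation factor that binds the small subunit, which fell by 0.69 ± 0.20 (SD, n = 2), Eif5, which triggers start codon recognition, at 0.58 ± 0.11 (SD, n = 3), Eif3c at 0.52 ± 0.41 (SD, n = 2) and Eif4g1, the scaffold of cap binding, at 0.51 ± 0.47 (SD, n = 3). Of 75 tested ribosome assembly genes, 7 (9.33%) were higher and 8 (10.7%) lower, with a median of 0.04. The largest were Polr1a, the catalytic subunit of RNA polymerase I, which fell by 0.60 ± 0.05 (SD, n = 3, adjusted p = 0.000516), Utp3 at -0.52 ± 0.07 (SD, n = 2), Senp3 at -0.49 ± 0.20 (SD, n = 2) and Nop10, of the pseudouridylation particle, at -0.48 ± 0.31 (SD, n = 3).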

How the data were processed

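The scanner files hold intensity values per spot and dye; per the labels they come from Agilent Feature Extraction 8.5, and the deposited tables hold log10 ratios. Set against the scanner files, the promoter columns are red over green (medians from -0.0102 to 0), and the expression column, with a median of -0.0158, is the mean of 3 arrays with replicate 2 turned and runs the other way, the direction used here (correlation -0.97 with red over green). Their centring is not stated. Dye normalization was linear on the promoter arrays and LOWESS on the expression arrays, per the file headers. No source used here names the build behind the array coordinates, so only distances to the annotated start are given. For promoters, log2 ratios of the deposited processed intensity values were centred on each array's median, and probes at most 2000 bp apart were averaged into regions of at least 3. A region counted as a member if at least 1 of its probes bore a member name. For RNA, mean intensity values were background-corrected (normexp, offset 50) and loess-normalized, and the brightest passing probe stood for a gene. RNA probes near background were left out.

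Ratios were tested with limma 3.58.1 in R 4.3.3 and Benjamini-Hochberg adjustment over all regions, genes or probes, and the procedure was tested on simulated data. The members and gene lists were chosen with earlier results of these data known. Genes were named by rule: up to 10 called members per direction, paralogs, stalk and Diamond-Blackfan genes, members whose probes differ in sign, and up to 4 called genes of each other list; a few genes that the rule names are not reported here, though counts include them. Promoters were also recomputed with normexp, loess, the median of probes, other filters, a slide block and probes within 500 bp. RNA was recomputed with the processed signals, median centring, no filter, no saturated spots, probe means, single probes, a dye term, current symbols and each replicate left out. After the data were seen, members were restricted to regions on the RefSeq chromosome and to genes without saturation.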

Additional observations from a re-analysis of the deposited data

Results flagged for a closer look

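Of 29 sets of 7 arrays compared, 3 had an array far from the others by Dixon's test, which by chance happens in about 1 in 20 sets. The Rpl37a promoter on chromosome 1 was lowest on replicate 2, at -0.30, with the next array at -0.18. The Rps7 promoter on chromosome 12 was highest on replicate 6, at 0.15, with the next at 0.06. The median of the part 2 member promoters was highest on replicate 3, at 0.10, with the next at 0.06.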

How the results depend on the processing

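The promoter size call on the labelled TKO side was 0 of 65 members with normexp and median centring, 0 with normexp and loess, and 0 of 63 on the RefSeq chromosome, an alternative chosen after seeing the data. At any size, normexp with median centring gave 5 and 12 members on the labelled TKO and J1 sides. Within 500 bp, 3 were on the labelled TKO side and the member median was 0.12, with Rps24 at 0.24 and Rpl7l1 at 0.10; the Rpl30-BC030476 promoter was 0.014 with normexp and median centring. For RNA, higher and lower members numbered 0 and 7 of 79 with median centring (median -0.22) and 4 and 8 of 62 without saturated spots, with shares given above. Without the filter they were 3 and 1 of 80 (3.75% and 1.25%, beside 8.15% and 7.24% of all genes). With the dye term they were 4 and 0 of 39 (10.3% and 0%, beside 14% and 11.9% of all genes). Lower members numbered 1 of 79 with processed signals (1.27%, beside 18.6% of all genes) and 8 of 124 over single probes (6.45%, beside 14.6% of all probes). Among genes without saturation, also chosen after seeing the data, 4 of 43 members were higher, beside 2027 of 12000 genes. Leaving out a replicate gave 5 to 15 higher and 0 to 2 lower. Without saturated spots another, dimmer probe stood for Rps24 (-0.62), Rps7 (-0.41), Rps3 (-0.33) and Rps28 (-0.23), so these are not the main probes measured again. With median centring the values were -0.21 (Rps3), -0.024 (Rpl27a), -0.063 (Rps15a), -0.059 (Rpl27) and -0.017 (Rpl13). Other than the use of fewer genes or arrays or of another probe, the cause was not tested. Rpl39l kept its promoter call under 7 alternatives, at -0.38 to -0.15, and its RNA call under 8, at 0.91 to 1.65. On part 1 the slide block could not be fitted. Spot saturation and signal over background limit the RNA ratios. No paired analysis was possible because each array's ratio already holds both lines and the 2 promoter parts hold different promoters.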
